A study of Mus musculus with 6 samples.

Results

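Interleukins are secreted messengers between leukocytes and tissue cells, and this account covers the genes for them and for their receptors in mouse aorta. Members were the protein-coding rows of the deposited table whose symbol begins with Il and a digit, which gave 71 genes of 32771. Symbols without an r after the number (31 genes) were read as ligands and those with it (40 genes) as receptors. The symbol split misplaces 4 genes: Il6st is the receptor chain gp130, Il18bp a soluble inhibitor and Il4i1 an amino acid oxidase, all without the r, while Il1rn, with the r, encodes the secreted IL-1 receptor antagonist. Il1f5, a ligand by symbol, is likewise an antagonist (of the IL-36 receptor). Il4 and the antisense gene Il1bos have symbols of this form but no protein-coding entry in the table and were left out.

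The samples were aortas of wild-type mice that had all been given AngII/BAPN, angiotensin II given with beta-aminopropionitrile, which blocks lysyl oxidase and so collagen and elastin cross-linking. In one arm (libraries 5, 7 and 39) an antibody against CTHRC1, a secreted protein of activated fibroblasts, was added, and in the control arm (libraries 14, 18 and 20) an isotype IgG. The labels give no age, sex, dose or aortic segment, and no aorta without AngII/BAPN was analysed here. Whether the libraries come from different animals is not stated, and the p-values below therefore describe library-to-library spread, part of which may be technical.

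Most interleukin receptors are pairs or trios of membrane chains, and a chain is often shared: IL-2, IL-4, IL-7, IL-15 and IL-21 use the common gamma chain Il2rg, IL-6 and IL-11 use gp130, and IL-1 and IL-33 use Il1rap. Type I and type II cytokine receptors signal through Janus kinases and STAT factors, whereas receptors of the IL-1 and IL-17 families signal through adaptors to NF-kB. Soluble antagonists and decoy receptors restrain several of these pathways. In the artery wall, fibroblasts, smooth muscle and endothelium carry receptors such as gp130 and Il1r1, while chains such as Il7r, Il2rb and Il18rap are known mainly from lymphocytes and other leukocytes.

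Promoter sequences are given for 4 of the genes on which the results below turn: Il6, the ligand with the lowest fold change; Il18rap, the receptor chain nearest the threshold; Il1rn, the antagonist; and Il33, the ligand with the highest level. Each is the stretch before 1 RefSeq start (GRCm38.p6), 5′ to 3′ on the plus strand, without annotated exon, and capitals mark matches to 3 motifs.
Il6, chr5:30012864-30013113: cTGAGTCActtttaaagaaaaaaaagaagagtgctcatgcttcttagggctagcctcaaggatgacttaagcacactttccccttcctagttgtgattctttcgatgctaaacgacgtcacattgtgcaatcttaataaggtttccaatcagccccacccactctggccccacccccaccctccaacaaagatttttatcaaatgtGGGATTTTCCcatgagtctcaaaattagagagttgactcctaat
Il18rap, chr1:40515112-40515361: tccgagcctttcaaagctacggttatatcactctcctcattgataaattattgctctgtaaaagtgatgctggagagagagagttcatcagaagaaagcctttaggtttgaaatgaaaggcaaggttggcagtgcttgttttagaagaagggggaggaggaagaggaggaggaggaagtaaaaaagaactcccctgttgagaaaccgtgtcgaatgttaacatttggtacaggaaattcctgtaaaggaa
Il1rn, chr2:24336610-24336852: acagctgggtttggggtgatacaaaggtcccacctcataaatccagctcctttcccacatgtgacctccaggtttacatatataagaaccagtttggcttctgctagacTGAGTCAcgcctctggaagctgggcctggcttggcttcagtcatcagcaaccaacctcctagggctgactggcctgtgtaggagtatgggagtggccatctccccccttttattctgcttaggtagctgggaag
Il33, chr19:29924863-29925112: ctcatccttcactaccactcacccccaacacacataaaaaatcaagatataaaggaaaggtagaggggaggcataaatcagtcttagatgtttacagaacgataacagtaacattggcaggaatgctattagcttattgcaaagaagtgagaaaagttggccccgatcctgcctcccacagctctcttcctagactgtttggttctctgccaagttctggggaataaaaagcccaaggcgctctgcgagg
The motifs, searched on both strands, were the STAT motif TTCNNNGAA, the AP-1 motif TGANTCA and the NF-kB consensus. In the Il6 stretch, capitals begin 249 bases before the start (AP-1) and 44 bases before it (NF-kB), and in the Il1rn stretch 141 bases before it (AP-1). The Il18rap and Il33 stretches hold no match. Il1rn and Il33 each have another RefSeq start (windows at chr2:24345041-24345287 and chr19:29945540-29945789, not shown), and neither of these windows holds a match. Over the 250 bases before each start, the STAT motif was present in 8 of 69 windows of 55 members, against 7.02% of all 32851 windows. The AP-1 motif was present in 12 of the 69 member windows, against 6.75% of all, and the NF-kB consensus in 5 of the 69, against 3.90%. A match is a description of the letters and not a shown binding site.

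Deposited counts summed to 64556253 to 67859566 per library. As labelled for aorta, the 5 smooth muscle markers were present in all libraries, at 2226 to 5229 summed CPM (counts scaled to library size with TMM factors) in the anti-CTHRC1 libraries and 3162 to 7467 in the IgG libraries. Some libraries stood apart. Taking the 3456 genes with a gap of over 0.5 on the log2(CPM + 1) scale between anti-CTHRC1 5 and 7, library 39 fell inside the gap for 87.5%, and for 6 of 6 such members. These genes were chosen for a wide gap between 5 and 7, and no other trio of libraries was compared. The share therefore cannot decide whether the antibody libraries are independent, and their independence was not shown. In IgG 14, 319 genes exceeded all other libraries by at least 4-fold, a number that was 1 to 3 elsewhere. Of the 49 members tested, IgG 18 had the highest value in 17 and IgG 14 in 13, and anti-CTHRC1 7 had the lowest in 14 and IgG 20 in 13.

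By level, expressed as FPKM (the authors' values scaled for gene length and depth), Il33 held most of the ligand signal. Il33, which encodes a nuclear alarmin of fibroblasts and endothelium (ENSMUSG00000024810, chromosome 19, 29925114 to 29960718), was at 60.7, 43.4 and 48.0 FPKM in anti-CTHRC1 libraries 5, 7 and 39, against 46.7, 33.0 and 27.9 FPKM in IgG libraries 14, 18 and 20. It made up 70.6% to 76.9% of the summed FPKM of the ligand symbols in the anti-CTHRC1 libraries and 61.3% to 67.3% in the IgG libraries, with Il6st, Il18bp and Il4i1 left out of the sum. Il6st, the gp130 chain, was at 40.8 ± 4.04 FPKM with the antibody and 37.4 ± 6.26 FPKM with IgG (mean ± SD, n = 3 each), so it and Il33 did not differ in order beyond their spread. Well below them came Il17d, Il16, Il34, Il1b and Il18bp, whose means over all libraries lay between 2.56 and 3.24 FPKM and whose ranges overlapped. Il15, Il18 and Il6 followed at 1.58, 1.48 and 0.983 FPKM.

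Among receptors Il11ra1, the binding chain for IL-11, had the highest level, at 41.2 ± 4.80 FPKM with the antibody and 37.6 ± 10.3 FPKM with IgG. Its row overlaps 6 other genes, and Il11ra2 is a near-identical copy, so the values of both are uncertain. Il4ra, Il13ra1 and Il1r1 were next, at 16.7, 15.3 and 14.7 FPKM over all libraries. They were followed by Il10rb (12.8), Il17rc (10.2), Il2rg (7.53), Il10ra (6.86), Il3ra (5.89) and Il15ra (4.41). Neighbours in this order overlapped in their ranges over all libraries. Within the antibody libraries alone, some did not overlap. The lowest Il11ra1 value there, 36.5 FPKM, was above every antibody value of Il4ra, which reached 12.1 FPKM. Il1r1 likewise lay above Il10rb, and Il17rc above Il2rg, in those libraries. Il3ra lay above Il10ra there, against the order given. Il7r, Il18rap, Il18r1 and Il12rb1, known from leukocytes, did not exceed 1.27 FPKM in any library.

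**Figure D1:**
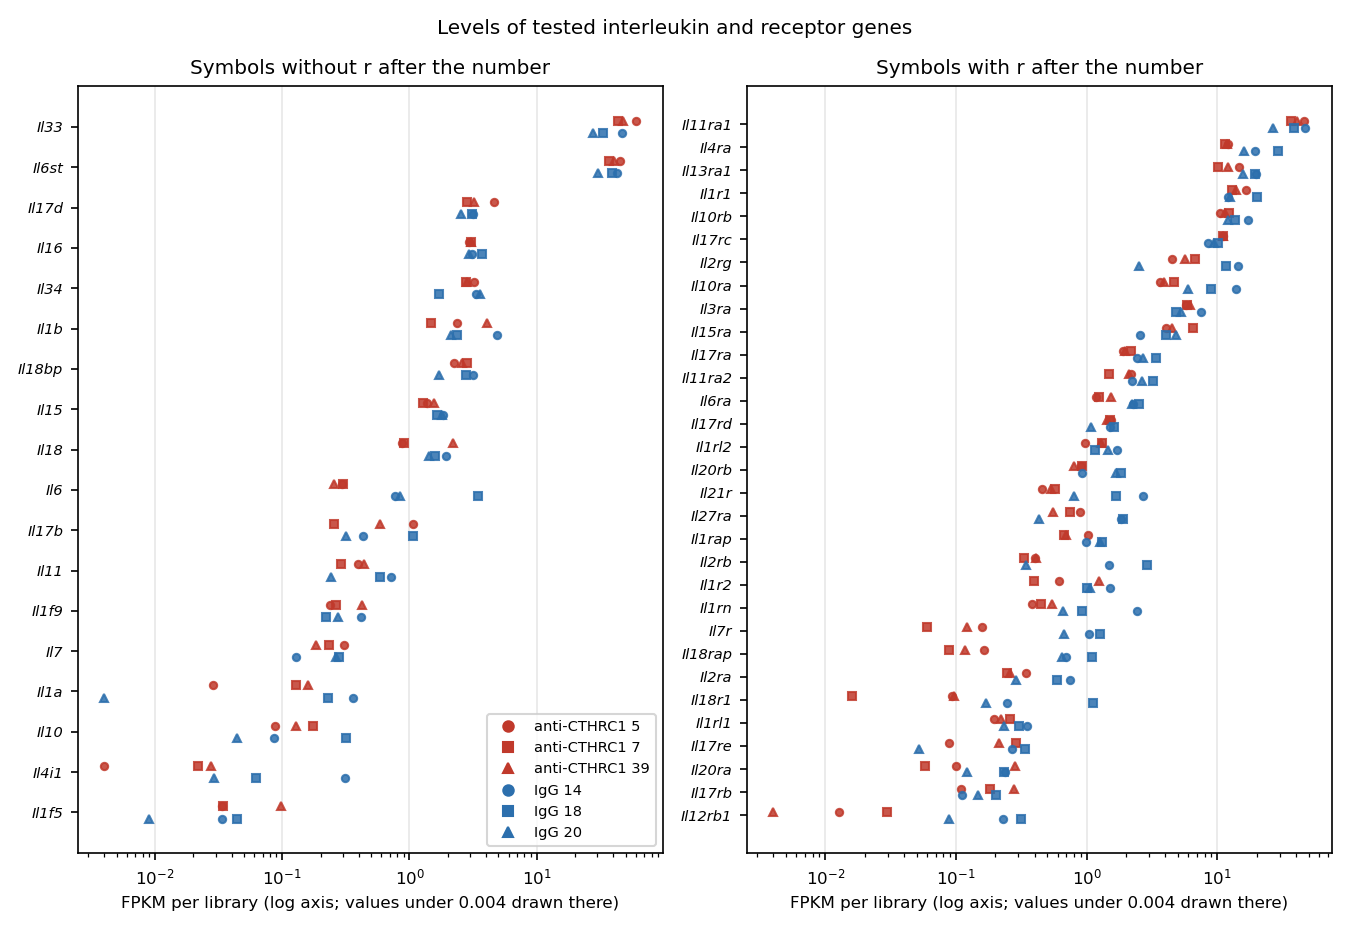
FPKM of the 49 tested members in each of the 6 libraries on a log axis, with symbols without r after the number on the left and those with it on the right, ordered by mean level; red marks are anti-CTHRC1 libraries and blue marks IgG libraries. Il33 and Il6st on the left and Il11ra1 on the right stand at the top in all libraries, with Il33 between 27.9 and 60.7 FPKM.

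The comparison asks which of these genes differ when CTHRC1 is targeted under AngII/BAPN. No member passed edgeR's quasi-likelihood test over all genes (Benjamini-Hochberg adjusted p under 0.05), where 0.317% of the 19241 genes tested did. Of the 71 members, 49 passed the filter on low counts, 18 ligand and 31 receptor symbols. An unadjusted p under 0.05 with a lower value after the antibody was found in 14 of the 49, where 9.31% of all tested genes had one, and with a higher value in 1 (Il33), where 7.8% had one. By symbol these 14 were 12 of 31 receptors and 2 of 18 ligands. DESeq2, run as an alternative, called 12 of the 49 lower, against 5.1% of all tested genes, and 1 higher, against 3.68%. Without overlap between the groups were 14 members lower and 3 higher, where 11% of all tested genes were found in each direction. The median log2 fold change was -0.53 for the receptor symbols and 0.02 for the ligand symbols, against -0.02 over all genes tested. The filter itself bears on these counts: Il4i1, Il18r1 and Il12rb1 reached the minimum in all 3 libraries only in the IgG group and Il1f5 only in the antibody group. Il4i1, Il18r1 and Il12rb1 are all among the 14 with an unadjusted p under 0.05 and a lower value. The members were chosen with earlier results of these data known, so these shares are descriptions and carry no test of their own.

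**Figure D2:**
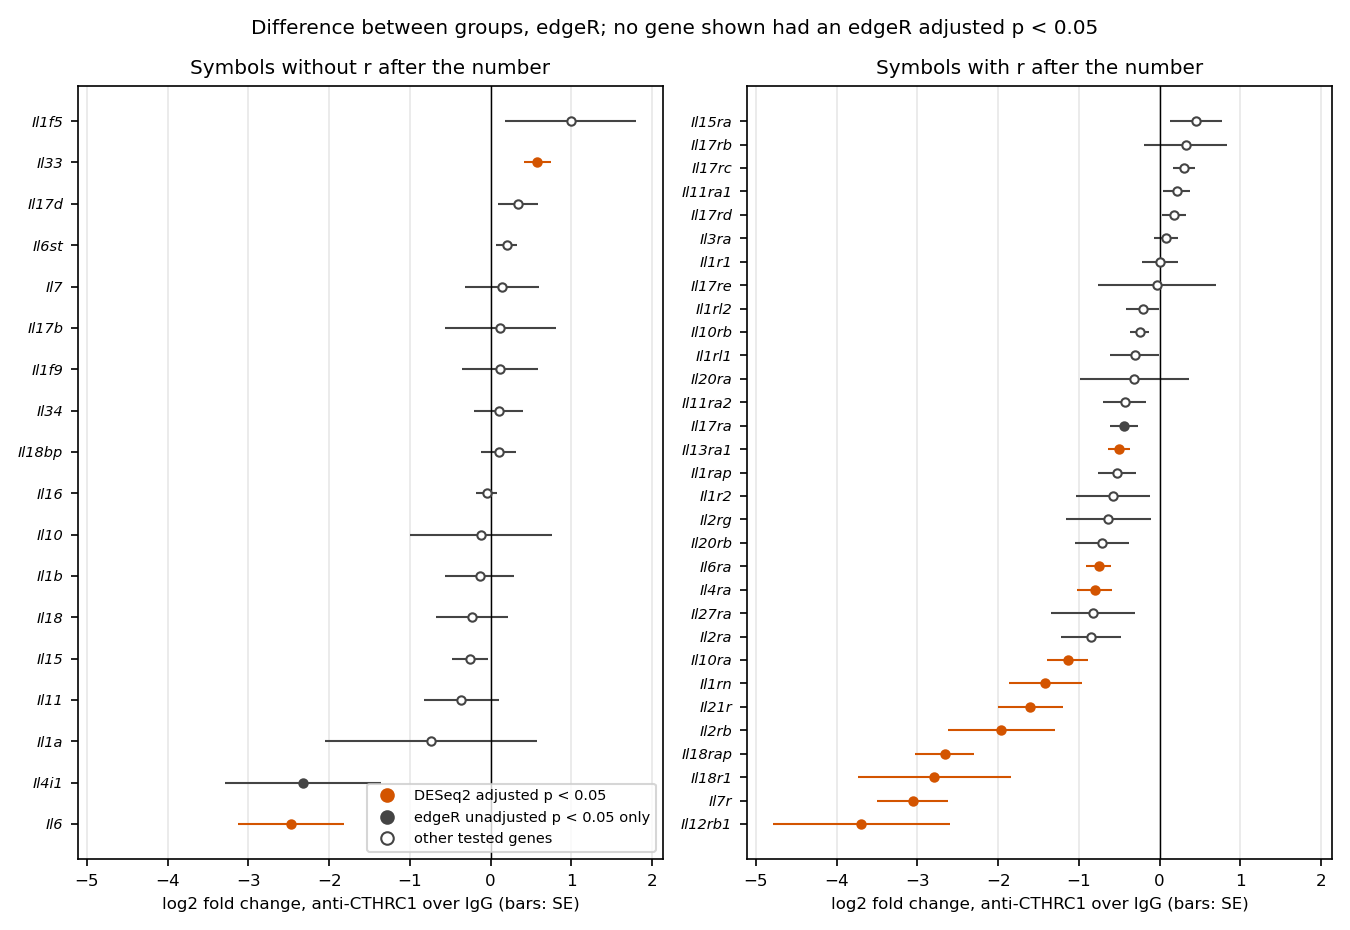
Log2 fold change of anti-CTHRC1 over IgG with its standard error for the 49 tested members (edgeR, 3 libraries per group), ligand symbols left and receptor symbols right. Filled orange points passed DESeq2 (13 genes), filled grey points had only an edgeR p under 0.05 (Il4i1 and Il17ra), and no point passed edgeR after adjustment.

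Among agonist ligands, Il6 and Il33 had the smallest p-values. Il6, which encodes the cytokine that drives the acute phase response and STAT3 signalling (chromosome 5, 30013114 to 30019981), had 0.771, 0.834 and 0.691 CPM in anti-CTHRC1 libraries 5, 7 and 39, against 1.77, 8.70 and 2.31 CPM in IgG libraries 14, 18 and 20. The groups did not overlap, and IgG 18 stood well above both other IgG libraries. The log2 fold change was -2.47 (SE 0.65; edgeR adjusted p = 0.167, DESeq2 0.00385), and it was -1.41 without IgG 18.

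Il33 had 184, 138 and 149 CPM in the antibody libraries and 126, 98.7 and 90.5 CPM in the IgG libraries. It gave a log2 fold change of 0.58 (SE 0.17; edgeR adjusted p = 0.192, DESeq2 0.0283). The groups did not overlap on this scale, but in the FPKM values given above the lowest antibody library lay below IgG 14. The receptor for IL-33, Il1rl1 (ST2), was low in both groups, at 0.225 ± 0.032 FPKM with the antibody and 0.295 ± 0.060 FPKM with IgG (-0.31 on the log2 scale, SE 0.30; edgeR adjusted p = 0.647). The fibroblast marker list (Pdgfra, Dcn, Lum, Dpt and Pi16) was also higher with the antibody, at 5057 to 6575 summed CPM against 3740 to 4112 CPM with IgG, with 4 of 5 genes positive. Its part in the Il33 difference was not tested. In bulk tissue, fewer cells of a type and less RNA per cell cannot be told apart.

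Gaps were smaller or absent in the other ligand genes with high levels. Il1b, the IL-1 agonist released by activated macrophages, had 4.76, 3.13 and 8.41 CPM with the antibody and 8.70, 4.66 and 4.56 CPM with IgG. Library 39 and IgG 14 were the high ones in their groups, and the groups overlapped (-0.14 on the log2 scale, SE 0.43; edgeR adjusted p = 0.905). Il18, another IL-1 family cytokine that needs caspase-1 processing, had 0.968, 1.05 and 2.43 CPM with the antibody, against 1.86, 1.69 and 1.68 CPM with IgG. Il15, which sustains NK and memory T cells, had 3.30, 3.24 and 3.85 CPM with the antibody and 3.89, 3.90 and 4.59 CPM with IgG, without overlap but by a small step (-0.25 on the log2 scale, SE 0.22; edgeR adjusted p = 0.613), and -0.13 without IgG 20.

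Il34, a ligand of the CSF1 receptor, and Il16, a CD4-binding chemoattractant, had fold changes of 0.10 (SE 0.31) and -0.05 (SE 0.13) on the log2 scale. Il17d gave 0.34 (SE 0.25), and 0.14 without anti-CTHRC1 5. Il11, the gp130 cytokine of fibroblasts, reached at most 1.42 CPM in any library and its groups overlapped. The rows of Il34, Il16, Il18, Il1b and Il18bp, and below those of Il1rap, Il6ra, Il10ra, Il27ra and Il3ra, overlap genes on the other strand. As the strand setting of the counting is not given, part of their counts may belong to those genes. Il4i1, the enzyme among these symbols, had 0.0302, 0.157 and 0.165 CPM with the antibody and 1.25, 0.326 and 0.200 CPM with IgG (-2.32 on the log2 scale, SE 0.96; edgeR adjusted p = 0.287), and -1.15 without IgG 14. Its row overlaps Tbc1d17, Atf5 and Nup62. Il4i1 reached the filter minimum in every IgG library but not in every antibody library.

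Natural inhibitors of the IL-1 family gave unlike values. Il1rn, the IL-1 receptor antagonist, had 2.22, 2.75 and 3.31 CPM in the antibody libraries, against 12.7, 5.34 and 4.11 CPM in the IgG libraries. The groups did not overlap, and IgG 14 was the highest. The log2 fold change was -1.42 (SE 0.45; edgeR adjusted p = 0.208, DESeq2 0.0314), and it was -0.78 without IgG 14. The Il1rn to Il1b ratio in FPKM was 0.160, 0.303 and 0.133 in anti-CTHRC1 libraries 5, 7 and 39, against 0.501, 0.393 and 0.309 in IgG libraries 14, 18 and 20. This ratio, looked at after the values were seen, did not overlap between the groups, although the gap between 0.303 and 0.309 was small. Il18bp, the decoy for IL-18, had 7.14, 9.56 and 8.49 CPM with the antibody and 8.91, 8.74 and 5.87 CPM with IgG, and its ratio to Il18 overlapped. Il1r2, the decoy receptor for IL-1, had 0.850 to 2.57 CPM with the antibody and 1.99 to 2.72 CPM with IgG, which overlapped (-0.58 on the log2 scale, SE 0.46; edgeR adjusted p = 0.573).

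Of the receptors of the IL-1 family, both chains for IL-18 were lower in each antibody library, whereas the groups overlapped for the chains for IL-1. Il18rap, the accessory chain of the IL-18 receptor (ENSMUSG00000026068, chromosome 1, 40515362 to 40551705), had 1.16, 0.661 and 0.856 CPM in the antibody libraries, against 4.36, 7.70 and 4.96 CPM in the IgG libraries. Each IgG library was well above each antibody library. Its log2 fold change was -2.66 (SE 0.37) with an adjusted p of 0.0530 (edgeR), and it passed in DESeq2 (1.17e-09) and in edgeR without IgG 14 (0.0357). With any other single library left out it did not pass edgeR. The adjusted p then ran from 0.0506 without IgG 20 to 0.423 without anti-CTHRC1 39. Il18r1, the binding chain on the same chromosome, had 0.499, 0.0945 and 0.511 CPM with the antibody, against 1.12, 5.64 and 0.915 CPM with IgG. Its fold change of -2.79 on the log2 scale (SE 0.95; edgeR adjusted p = 0.226, DESeq2 0.0271) was -1.46 without IgG 18. Il18r1 reached the filter minimum in every IgG library but not in every antibody library, so it was tested only through the IgG group. Il1r1, the signalling receptor for IL-1, averaged 98.9 ± 9.92 CPM with the antibody and 98.5 ± 31.7 CPM with IgG (0.01 on the log2 scale, SE 0.23; edgeR adjusted p = 0.993). Its shared partner Il1rap had 8.38 to 12.3 CPM with the antibody and 10.6 to 16.1 CPM with IgG (-0.53 on the log2 scale, SE 0.23; edgeR adjusted p = 0.308). That Il18rap and Il1r1 differ from each other in response was not tested.

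In the common gamma chain and type 2 family, 7 of 8 tested receptor chains had negative fold changes, as had 10066 of the 19241 genes tested, and DESeq2 called 5 of the 8 lower, against 5.1% of all genes. Il7r, the IL-7 receptor of lymphocytes (ENSMUSG00000003882, chromosome 15, 9505788 to 9530176), had 0.771, 0.315 and 0.616 CPM in the antibody libraries, against 4.52, 6.16 and 3.53 CPM in the IgG libraries. Every IgG library was far above every antibody library, with a log2 fold change of -3.06 (SE 0.44; edgeR adjusted p = 0.0623, DESeq2 1.60e-09). Il7r passed edgeR without IgG 20 (0.0474) but not with any other single library left out (adjusted p = 0.448 without anti-CTHRC1 39). Il21r, the IL-21 receptor, had 1.60, 2.13 and 1.91 CPM with the antibody and 8.35, 5.79 and 2.98 CPM with IgG (-1.60 on the log2 scale, SE 0.40; edgeR adjusted p = 0.158, DESeq2 0.00480).

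Il4ra, the chain through which IL-4 and IL-13 signal, was the most abundant member with such a gap. It had 76.6, 75.7 and 76.7 CPM in anti-CTHRC1 libraries 5, 7 and 39, against 108, 183 and 109 CPM in IgG libraries 14, 18 and 20. The antibody libraries were nearly level with each other and all below the IgG libraries, of which 18 was the highest. The log2 fold change was -0.80 (SE 0.22; edgeR adjusted p = 0.171, DESeq2 0.0115), and -0.51 without IgG 18. Its partner Il13ra1 had 57.5, 41.9 and 48.2 CPM with the antibody, against 68.1, 74.4 and 66.2 CPM with IgG. That gave -0.50 on the log2 scale (SE 0.14; edgeR adjusted p = 0.172, DESeq2 0.0258), without overlap.

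Il2rb, which binds IL-2 and IL-15, had 1.81, 1.56 and 1.88 CPM with the antibody, against 5.96, 12.8 and 1.66 CPM with IgG. The groups overlapped because IgG 20 lay at the antibody level. Its log2 fold change was -1.96 (SE 0.67; edgeR adjusted p = 0.226, DESeq2 0.0289), and -1.12 without IgG 18. The shared chain Il2rg showed the same pattern, with 11.2, 17.7 and 14.5 CPM in the antibody libraries and 32.0, 28.6 and 6.79 CPM in the IgG libraries (-0.64 on the log2 scale, SE 0.53; edgeR adjusted p = 0.588). It was -0.29 without IgG 14, -0.42 without IgG 18 and -1.02 without IgG 20. Il2ra had -0.85 (SE 0.37; edgeR adjusted p = 0.303). Il15ra, the chain that presents IL-15, was the 1 tested chain of the family with a positive value, 0.45 (SE 0.32; edgeR adjusted p = 0.530), and its groups overlapped. Its value was 0.20 without anti-CTHRC1 7, 0.19 without IgG 14 and 0.76 without IgG 20.

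In the IL-6 and IL-12 family, the binding chain of the IL-6 receptor was lower in each antibody library, while the shared chain gp130 was not shown to differ. Il6ra (chromosome 3, 89864059 to 89913196) had 10.8, 11.9 and 14.2 CPM in the antibody libraries, against 18.2, 22.6 and 21.7 CPM in the IgG libraries. The groups did not overlap, and the log2 fold change was -0.76 (SE 0.15; edgeR adjusted p = 0.113, DESeq2 0.00155). Il6st had 526, 455 and 480 CPM with the antibody and 442, 451 and 379 CPM with IgG, with a log2 fold change of 0.20 (SE 0.13, edgeR adjusted p = 0.477). Its groups were barely apart in CPM and overlapped in FPKM, with 37.1 in anti-CTHRC1 7 and 42.5 in IgG 14. The ratio of Il6ra to Il6st in FPKM was 0.0263, 0.0337 and 0.0380 in the antibody libraries, against 0.0530, 0.0642 and 0.0733 in the IgG libraries. This ratio was also looked at after the values were seen. Il11ra1 had a log2 fold change of 0.21 (SE 0.17; edgeR adjusted p = 0.560), and of 0.11 without IgG 20 and 0.33 without IgG 14.

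Il12rb1, the chain shared by the IL-12 and IL-23 receptors, was close to absent with the antibody. It had 4, 9 and 0 deposited counts in anti-CTHRC1 libraries 5, 7 and 39, against 67, 92 and 25 in IgG libraries 14, 18 and 20. The fitted log2 fold change was -3.69 (SE 1.09; edgeR adjusted p = 0.192, DESeq2 0.0146), and at such counts its size depends on the fit. Like Il18r1, Il12rb1 was tested only because it reached the filter minimum in the IgG group. Il27ra, the IL-27 receptor, had 2.07 to 3.33 CPM with the antibody and 1.71 to 6.95 CPM with IgG (-0.82 on the log2 scale, SE 0.52; edgeR adjusted p = 0.467).

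In the IL-10 family, Il10ra, the chain that confers IL-10 binding on leukocytes (chromosome 9, 45253837 to 45269149), had 13.5, 18.01 and 14.7 CPM in the antibody libraries, against 45.6, 32.7 and 23.4 CPM in the IgG libraries. The groups did not overlap, with IgG 14 highest. The log2 fold change was -1.14 (SE 0.25; edgeR adjusted p = 0.129, DESeq2 0.00141), and its row overlaps 2 other genes. Its partner Il10rb, which is shared with several other cytokines, had -0.25 (SE 0.12; edgeR adjusted p = 0.332), with 42.1 to 51.5 CPM with the antibody and 51.8 to 60.8 CPM with IgG. Il10 itself had 4 to 30 deposited counts per library and overlapping groups. Il20rb, a chain of the IL-20 receptors, had -0.71 (SE 0.33; edgeR adjusted p = 0.332).

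The IL-17 receptors gave values in both directions. Il17ra, the shared chain, had 17.4, 21.0 and 18.3 CPM with the antibody and 19.8, 30.6 and 26.5 CPM with IgG, which overlapped (-0.44 on the log2 scale, SE 0.18; edgeR adjusted p = 0.280, DESeq2 0.194), and gave -0.29 without IgG 18. Its partner for IL-17A and IL-17F, Il17rc, had 31.2, 32.7 and 31.9 CPM with the antibody, against 21.1, 28.2 and 28.6 CPM with IgG. The log2 fold change of Il17rc was 0.30 (SE 0.14; edgeR adjusted p = 0.331), in the opposite direction and without overlap, and it was 0.17 without IgG 14. The genes of IL-17A and IL-17F were not analysed here. Il3ra, the alpha chain of the IL-3 receptor, had 0.08 (SE 0.15; edgeR adjusted p = 0.827).

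**Figure D3:**
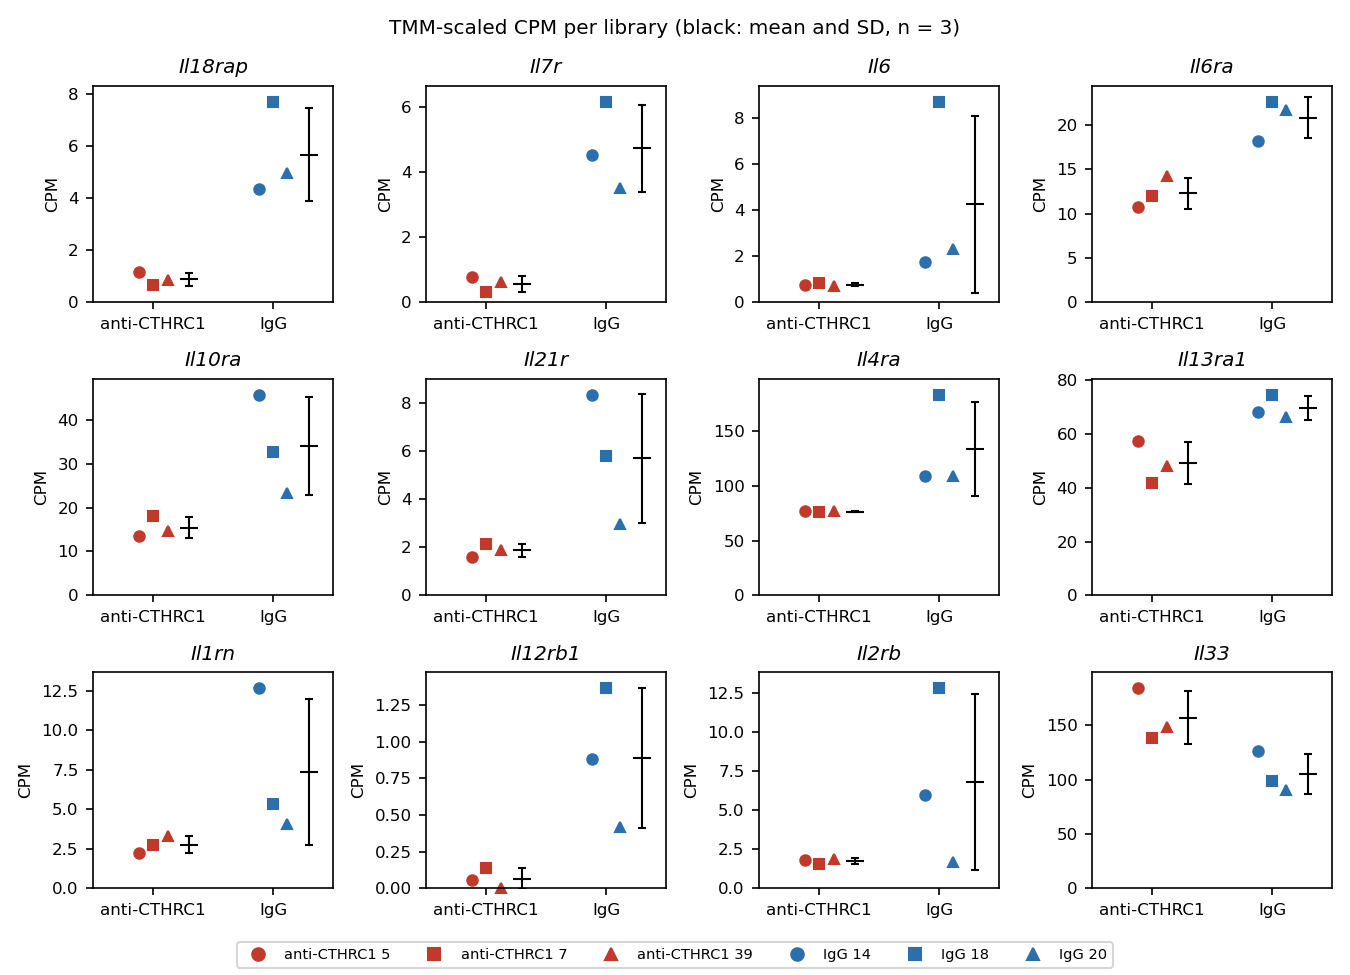
TMM-scaled CPM of 12 members in each library, with anti-CTHRC1 (red) left of IgG (blue) and the mean and SD of each group in black (n = 3); each vertical axis starts at 0. The red marks lie below all blue marks in 10 panels, overlap with 1 blue mark for Il2rb, and in the Il33 panel they lie above the blue marks.

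The 22 members that did not pass the filter (13 ligand and 9 receptor symbols) held at most 64 counts in any library, and 9 of them stayed under 10 counts in all libraries. The highest value belonged to Il31, a cytokine of activated T cells, with 0 counts in the 3 anti-CTHRC1 libraries and 64, 0 and 0 in IgG 14, 18 and 20. Il21 was likewise counted only in IgG 14 (10 counts). Il9r had 0 counts in each antibody library, against 33, 4 and 9 in the IgG libraries. In the other direction Il12a, a subunit of IL-12, had 4, 18 and 24 counts in anti-CTHRC1 libraries 5, 7 and 39, against 4, 0 and 0 in the IgG libraries. Il1f6, Il1f8, Il19, Il17c, Il25, Il12b, Il23a, Il27, Il5, Il2, Il1rapl1, Il22ra1, Il22ra2, Il12rb2, Il23r, Il31ra, Il5ra and Il13ra2 made up the rest, and differences at such counts are not readable. The number of members with at least 1 count was 55 to 60 in the antibody libraries and 53 to 65 in the IgG libraries.

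Of the leukocyte marker lists, the macrophage list alone was lower in each antibody library, and the sums of the T and NK cell, B cell, neutrophil and mast cell lists overlapped. The macrophage list (9 of 9 genes negative, none at 0 in any library) reached 807 to 1170.2 summed CPM with the antibody, below the 1403 to 1937 CPM of the IgG libraries, without overlap. Its part in the lower values of Il10ra, Il4ra, Il13ra1, Il6ra and Il1rn was not tested. The T and NK cell list (8 of 9 genes negative, none at 0) summed to 8.35, 10.3 and 10.04 CPM in anti-CTHRC1 libraries 5, 7 and 39, against 32.8, 65.4 and 8.13 CPM in IgG libraries 14, 18 and 20. IgG 20 thus had the lowest sum of all 6, but its markers did not share a direction. In IgG 20, Lck (2.61 CPM) and Cd3g (0.798 CPM) lay above every antibody library. Cd247 (2.03 CPM), Cd3d (0.0333 CPM) and Cd8a (0.333 CPM) lay below every antibody library there. The other markers of the list lay within the antibody range in IgG 20. In that library Il2rb (1.66 CPM) and Il2rg (6.79 CPM) lay at or below the antibody values. Il7r (3.53 CPM), Il18rap (4.96 CPM), Il12rb1 (0.416 CPM) and Il21r (2.98 CPM) were above every antibody library there.

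The mesothelial list (5 of 5 negative, Krt19 at 0 in at least 1 library) summed to 4.99 to 7.62 CPM with the antibody and to 24.0, 90.4 and 2.68 CPM in IgG 14, 18 and 20. IgG 18, the library with the highest Il6, Il18r1, Il4ra and Il2rb, was also the highest in this list. The same library had the highest T and NK cell (65.4 CPM), smooth muscle (7467 CPM) and endothelial (1041 CPM) sums. The part of these lists in those values was not tested. The adipocyte list (5 of 5 positive, 1 past edgeR) summed to 2947 to 5378 CPM with the antibody and 1478 to 2961 CPM with IgG. Over all tested genes 0.104% passed edgeR as higher. Neutrophil (2 of 6 positive), B cell (1 of 4, Ms4a1 at 0 in some libraries), mast cell (4 of 5 tested, Ms4a2 at 0 in some), endothelial (3 of 5), smooth muscle (0 of 5) and heart muscle (4 of 5, 2 past edgeR) sums overlapped between the groups. Within the heart muscle list 3 of 5 genes were higher with the antibody without overlap, where 11% of all tested genes were. Myl7 averaged 29.3 ± 9.20 CPM with the antibody and 1.55 ± 0.641 CPM with IgG, and Myl4 averaged 36.7 ± 8.50 CPM with the antibody and 6.41 ± 0.362 CPM with IgG. Nppa averaged 11.2 ± 8.55 CPM with the antibody and 0.271 ± 0.190 CPM with IgG. Myh6 and Actc1, the rest of the list, overlapped and were highest in IgG 14, at 289 and 276 CPM. Actc1 was negative (-0.55 on the log2 scale, SE 1.12). Whether these heart muscle values bear on the interleukin values was not tested.

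**Figure D4:**
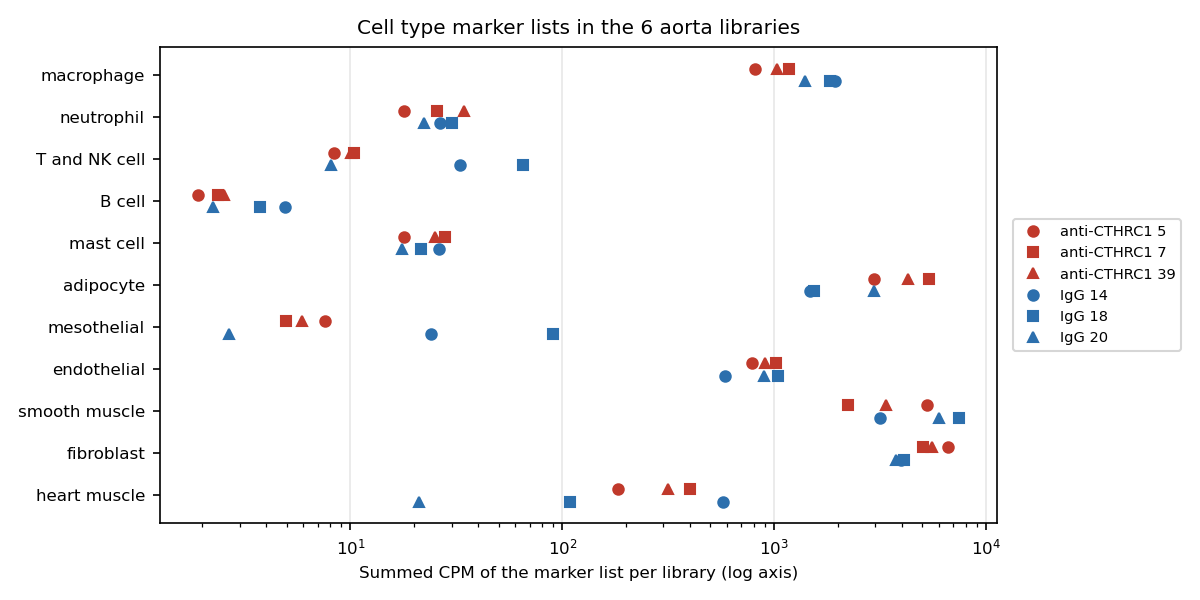
Summed TMM-scaled CPM of 11 cell type marker lists in each library on a log axis, red for anti-CTHRC1 and blue for IgG. The groups do not overlap for the macrophage list (lower with the antibody) and the fibroblast list (higher), while in the T and NK cell and mesothelial lists IgG 20 sits at or below the antibody libraries and IgG 14 and 18 above them.

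Genes that act with interleukins but lie outside the symbol rule were taken from 10 lists, and none passed edgeR after adjustment over all genes. In what follows a value in brackets is a log2 fold change with its SE. Of the adaptors and kinases of IL-1 signalling 8 of 12 were positive, the median log2 fold change was 0.03, and none had an unadjusted p under 0.05. The smallest p-values among them belonged to Irak1, a receptor-associated kinase (0.16, SE 0.09; edgeR adjusted p = 0.403), and Tab2, an adaptor of the kinase TAK1 (-0.20, SE 0.11; edgeR adjusted p = 0.427). The inflammasome genes, which process IL-1 beta and IL-18, were negative in 10 of 10, with a median of -0.45. An unadjusted p under 0.05 with a lower value was found in 3 of them, where 9.31% of all tested genes had one. DESeq2 called 1 lower, against 5.1% of all tested genes. Aim2, a DNA sensor, averaged 2.17 ± 0.147 CPM with the antibody and 4.26 ± 1.10 CPM with IgG (-0.97, SE 0.29; edgeR adjusted p = 0.192, DESeq2 0.0257). Casp4, the caspase-11 gene, averaged 8.09 ± 0.986 CPM with the antibody and 12.3 ± 2.58 CPM with IgG (-0.60, SE 0.20; edgeR adjusted p = 0.211).

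Relatives of IL-6 outside the rule were negative in 6 of 9 (median -0.26). Oncostatin M (Osm), a gp130 cytokine of myeloid cells, averaged 0.498 ± 0.143 CPM with the antibody and 1.55 ± 0.446 CPM with IgG (-1.64, SE 0.43; edgeR adjusted p = 0.165, DESeq2 0.0142). In the granulocyte-macrophage factor and TSLP system 4 of 7 tested genes were negative (median -0.29), among them the receptor chains Csf2ra (-0.71, SE 0.19; edgeR adjusted p = 0.172, DESeq2 0.0242) and Csf3r (-0.66, SE 0.30; edgeR adjusted p = 0.317). The genes of receptor shedding were negative in 3 of 3 (median -0.25), with Rhbdf2, which encodes the ADAM17 trafficking factor iRhom2 (-0.44, SE 0.12; edgeR adjusted p = 0.184, DESeq2 0.0392) and Adam10, a protease (-0.25, SE 0.10; edgeR adjusted p = 0.267) having the smallest p-values.

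Janus kinases and STATs were positive in 7 of 11 (median 0.05). Stat5a, a STAT downstream of the common gamma chain, had 34.0, 43.4 and 39.7 CPM in anti-CTHRC1 libraries 5, 7 and 39, against 22.2, 18.9 and 24.1 CPM in IgG libraries 14, 18 and 20. It was higher in each antibody library (0.84, SE 0.14; edgeR adjusted p = 0.0798, DESeq2 6.70e-05). Jak3, the kinase bound to the common gamma chain, averaged 52.0 ± 8.89 CPM with the antibody and 33.4 ± 3.35 CPM with IgG (0.64, SE 0.15; edgeR adjusted p = 0.147, DESeq2 0.0112). Both were opposite in sign to the receptor chains Il2rb, Il7r, Il21r and Il2rg. Stat4, a STAT of the IL-12 pathway added here after its values were seen, went the other way. It had 0.544, 0.378 and 0.916 CPM with the antibody and 14.8, 3.58 and 0.915 CPM with IgG, which overlapped at IgG 20 (-3.39, SE 0.998; edgeR adjusted p = 0.192, DESeq2 0.00226). Jak2 was at -0.28 (SE 0.12; edgeR adjusted p = 0.285), lower in each antibody library. Stat5b was higher in each antibody library (0.33, SE 0.11, edgeR adjusted p = 0.232). Jak2 and Stat5b were also added after their values were seen. Among feedback regulators 8 of 14 were negative (median -0.20), with the smallest p-values for Ptpn6, the phosphatase SHP-1 of leukocytes (-0.95, SE 0.26; edgeR adjusted p = 0.179, DESeq2 0.0151), and Socs2 (-1.03, SE 0.30; edgeR adjusted p = 0.190, DESeq2 0.0193).

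The NF-kB inflammatory targets had the lowest median of the 10 lists, -1.05, with 9 of 10 negative. An unadjusted p under 0.05 with a lower value was found in 5 of them, where 9.31% of all tested genes had one. DESeq2 called 3 lower, against 5.1% of all tested genes. Only 3 were lower without overlap between the groups, where 11% of all tested genes were, and the rest overlapped. Vcam1, the leukocyte adhesion molecule, averaged 79.4 ± 5.92 CPM with the antibody and 183 ± 43.2 CPM with IgG (-1.20, SE 0.19; edgeR adjusted p = 0.0726, DESeq2 1.05e-06). Nfkbia, the inhibitor induced by NF-kB itself, averaged 27.8 ± 1.97 CPM with the antibody and 54.4 ± 16.9 CPM with IgG (-0.97, SE 0.21; edgeR adjusted p = 0.129, DESeq2 0.00200). Of the IL-17 signalling list 6 of 7 were negative (median -0.33), with the smallest p-values for Cebpd, an acute phase transcription factor (-1.38, SE 0.32; edgeR adjusted p = 0.141, DESeq2 0.000757), and Nfkbiz (-0.87, SE 0.27; edgeR adjusted p = 0.199, DESeq2 0.0382). Targets of IL-4 and IL-13 in macrophages did not share a direction, with 4 of 8 tested negative and a median of -0.02. Arg1, arginase-1, had 2.04, 0.803 and 3.44 CPM in the antibody libraries and 15.5, 2.60 and 7.97 CPM in the IgG libraries, which overlapped (-2.05, SE 0.75; edgeR adjusted p = 0.246, DESeq2 0.0336). Cd209a, a lectin of dendritic cells, overlapped as well (-0.52, SE 0.44; edgeR adjusted p = 0.592).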

How the data were processed

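Total RNA of 6 mouse aorta samples, 3 per group, was sequenced from both ends after a strand-marking library preparation, per the labels' protocols. The authors deposited whole-number counts and FPKM values per gene and library, per the file headers. HISAT2, StringTie, DESeq2 and GRCm38 are named in the submitters' processing notes; their versions and roles and the counting mode are not given in the sources used here. Even numbers made up 56.3% to 57.4% of each library's counts under 60. Mates may have been counted singly in part, which was not tested and would make sampling noise larger than the totals imply. Members' identifiers were all in GENCODE M21, 58 of 71 at identical positions; the table's own coordinates are printed.

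Counts of all 6 libraries entered 1 two-sided quasi-likelihood F-test (edgeR 4.0.16, R 4.3.3; robust fit, TMM factors, low counts removed with filterByExpr), with Benjamini-Hochberg adjustment over 19241 genes at 0.05. CPM values are TMM-scaled, and standard errors derive from F. Alternatives were DESeq2 1.42.0 and its size factors, no filter, limma 3.58.1 on log2(FPKM + 1) and log2(FPKM + 0.1) at a mean FPKM of 0.1 or more, and libraries left out. Named were members with an unadjusted p under 0.05 or among the 10 highest by FPKM in each class, and the 2 genes of smallest p in each pathway list, of which 1 gene is not reported here; other members named were chosen after their values were seen. The members and lists were chosen with earlier results of these data known.

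On simulated data for the comparison of both groups (18624 genes, 200 of them altered) the edgeR step recovered 17% of 2-fold and 54% of 4-fold changes, with 4 false calls. Promoter sequences are RefSeq's (GRCm38.p6), matched by symbol for 55 members. In 58 of their 69 windows, bases after the start were found in a GENCODE transcript of the same gene.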

Additional observations from a re-analysis of the deposited data

How the results depend on the processing

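In edgeR 0 ligand and 0 receptor symbols passed on all 6 libraries. An unadjusted p under 0.05 was found in 3 and 12 of them, and in 3292 of the 19241 genes tested. DESeq2 called 2 and 11 of them (709 genes higher and 981 lower over the table, against 20 and 41 in edgeR). Without the filter on low counts edgeR called 2 receptors, Il18rap and Il7r, and 32 genes higher and 63 lower. Limma on log2(FPKM + 1) called 0 members, and 8 genes higher and 12 lower. In that fit 1 ligand and 9 receptors had an unadjusted p under 0.05, as had 2499 of the 19873 genes tested. Leaving out single libraries gave 0 to 71 genes higher, 0 to 156 lower, 0 ligands and 0 to 1 receptors (Il18rap without IgG 14, Il7r without IgG 20); no gene was called in either direction without anti-CTHRC1 7, anti-CTHRC1 39 or IgG 18, with 2054, 1802 and 2468 genes at an unadjusted p under 0.05. With anti-CTHRC1 39 and IgG 14 both left out edgeR called 0 genes higher and 0 lower, with 2056 genes, 2 ligands and 11 receptors at an unadjusted p under 0.05. The causes were not tested.

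Of 358 values for 30 named members under these settings, 327 kept direction and side of the threshold, 17 passed it in addition and 14 changed sign. No named member passed edgeR on all 6 libraries, so none could lose a pass. In the settings where no gene of the table was called, no member could change side. The 327 values are therefore no measure of stability. Sizes moved more: on log2(FPKM + 1), which shrinks low genes, limma gave -0.83 for Il7r, -0.68 for Il18rap, -0.25 for Il12rb1, -0.45 for Il18r1 and -0.92 for Il6, against -3.06, -2.66, -3.69, -2.79 and -2.47 in edgeR. Sign changes were confined, among the named members and settings run, to genes with small fold changes on all 6 libraries: Il34 (-0.16 without IgG 18, to 0.42 without IgG 20), Il18 (0.0018 without anti-CTHRC1 5, to -0.78 without 39), Il18bp (-0.002 without anti-CTHRC1 7, -0.030 without IgG 20, to 0.20 without anti-CTHRC1 5), Il1b (0.14 without anti-CTHRC1 7, 0.24 without IgG 14, to -0.59 without anti-CTHRC1 39), Il16 (0.056 without IgG 18, to -0.14 without IgG 14 and -0.15 without IgG 14 and anti-CTHRC1 39), Il3ra (-0.030 without IgG 18, to 0.21 without IgG 14) and Il1r1 (-0.017 in both limma fits, -0.08 without anti-CTHRC1 5, -0.17 without IgG 14, -0.03 without IgG 20, -0.15 without anti-CTHRC1 39 and IgG 14, to 0.29 without IgG 18). Members under 1 CPM are limited by depth. No paired analysis was possible because the groups share no replicate numbers.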
